A study of Homo sapiens with 6 samples.

Results

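ATF4, CHOP (encoded by DDIT3) and the genes that act with them or feed back on them were examined in MKN-74 human gastric cancer cells with and without forced HOXD9. The 10 members were taken by name, with earlier results of these data known. They were the factors ATF4, DDIT3, ATF3, ATF5, CEBPB and CEBPG, the feedback genes TRIB3, PPP1R15A and PPP1R15B, and the secreted peptide gene ADM2. All 10 were among the 12385 genes measured, with 20 of the 40304 transcripts. The question was whether the factors themselves moved with their target genes. MKN-74 is an established gastric adenocarcinoma line. One group of 3 libraries (LV-HOXD9) came from cells transduced with a lentivirus carrying HOXD9, a homeobox transcription factor, and the other group of 3 (LV-Vector) from cells given the empty lentivirus; both groups had been selected with puromycin at 10 μg/ml for at least 14 days and grown in medium with foetal bovine serum. The insert was driven by a ubiquitin promoter, and the vector also carries green fluorescent protein and puromycin resistance, so both groups share these. The labels call the libraries of a group biological replicates but name no separate transductions. The p-values therefore measure only the spread between these libraries, which may be technical.

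The integrated stress response begins when kinases that sense unfolded protein, amino acid shortage, double-stranded RNA or haem shortage phosphorylate the translation factor eIF2. General translation then slows while translation of the ATF4 mRNA rises, so ATF4 protein is set largely at translation, and only RNA was measured here. ATF4 is a basic leucine zipper (bZIP) factor that pairs with C/EBP factors and switches on genes for amino acid synthesis and uptake, tRNA charging and redox balance. Among its targets are DDIT3, ATF3, ATF5, CEBPB and CEBPG, which are bZIP factors themselves, TRIB3, a pseudokinase that binds and restrains ATF4 and CHOP, and PPP1R15A (GADD34), which brings the phosphatase PP1 to eIF2 and ends the response. PPP1R15B (CReP) does the same work without needing stress.

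ATF4 and its partners bind the C/EBP-ATF response element, so the promoters of the members were searched for TGATGNAA on both strands, where N is any base. RefSeq promoter windows of 300 bases, from 250 before to 50 after each start, were at hand for 10 of 10 members (19 windows, GRCh38.p14). The element stood in windows of ATF3, CEBPG and PPP1R15B (3 of 10 members), against 4.46% of 27305 genes and 3.62% of their 35116 windows. The sequences below show these matches in capitals with the bases around them, 5′ to 3′ on the strand of the gene. The ATF3 match begins at base -191 from the more upstream of that gene's starts. The CEBPG match begins at -42 from the more downstream of its starts, and the PPP1R15B match at -227. ATF3-202, the only ATF3 transcript listed, begins at chr1:212782012 (GRCh37), far downstream of the gene start at 212738676. The ATF3 match is thus not next to the start of the measured transcript.
ATF3, plus strand, chr1:212565190-212565249: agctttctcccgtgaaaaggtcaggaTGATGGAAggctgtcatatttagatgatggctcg
CEBPG, plus strand, chr19:33374045-33374104: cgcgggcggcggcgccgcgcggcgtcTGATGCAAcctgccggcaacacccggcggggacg
PPP1R15B, minus strand, chr1:204412011-204412067: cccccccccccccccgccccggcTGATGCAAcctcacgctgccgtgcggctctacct

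Of the members with a match, as described below, CEBPG was lower in every LV-HOXD9 library, PPP1R15B lower by a smaller amount, and ATF3 overlapped between the groups. DDIT3 and ADM2, the members with the lowest ratio of LV-HOXD9 to LV-Vector, had no match to TGATGNAA in these windows. The ADM2 window is shown whole, and so is the first of the 2 DDIT3 windows, which lie 3 bases apart. Both were also searched for TGACGTCA (the CRE bound by ATF and CREB factors), for the ER stress response element and for ATAAAA, the core bound by posterior HOX proteins, and held none, so no base is in capitals. No match says only that these letters are not in the window.
DDIT3, minus strand, chr12:57520465-57520764: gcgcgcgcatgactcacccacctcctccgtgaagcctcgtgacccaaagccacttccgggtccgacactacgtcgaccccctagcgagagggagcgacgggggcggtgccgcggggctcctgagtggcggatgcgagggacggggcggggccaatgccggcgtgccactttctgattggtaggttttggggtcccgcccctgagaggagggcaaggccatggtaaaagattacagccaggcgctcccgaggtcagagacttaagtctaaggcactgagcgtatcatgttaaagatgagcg
ADM2, plus strand, chr22:50481293-50481592: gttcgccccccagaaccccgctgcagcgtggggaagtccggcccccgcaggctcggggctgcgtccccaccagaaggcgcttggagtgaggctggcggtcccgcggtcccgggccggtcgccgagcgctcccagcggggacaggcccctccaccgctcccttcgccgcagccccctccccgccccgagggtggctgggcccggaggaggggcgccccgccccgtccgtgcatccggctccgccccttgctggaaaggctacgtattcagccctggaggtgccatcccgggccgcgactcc

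Of all 10 members, only PPP1R15A held TGACGTCA, at -58 (1.85% of all windows and 2.25% of genes), and only PPP1R15A held ATAAAA, at -29 (16% of all windows and 19% of genes). The ER stress response element, which is CCAAT and CCACG set 9 bases apart, was in no member and in 0.0769% of all windows. PPP1R15A is shown because it holds both motifs. Its ATAAAA is preceded by T and so reads TATAAAA, the letters of a TATA box. The match does not tell a HOX site from a TATA box. The RNA of PPP1R15A overlapped between the groups.
PPP1R15A CRE, plus strand, chr19:48872337-48872396: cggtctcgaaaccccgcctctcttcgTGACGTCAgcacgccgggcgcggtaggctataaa
PPP1R15A HOX core, plus strand, chr19:48872366-48872423: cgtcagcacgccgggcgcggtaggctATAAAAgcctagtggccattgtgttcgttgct

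Most of the ATF4 and CHOP factors were lower in LV-HOXD9, while ATF3 and ATF5 had higher means there. ATF4, DDIT3, CEBPB, CEBPG, PPP1R15B and ADM2 were below LV-Vector in every library, while ATF5 was above it in every library. TRIB3, PPP1R15A and ATF3 overlapped. Only ADM2 passed the test across all genes (limma on log2(FPKM + 1), adjusted p under 0.05 by Benjamini-Hochberg over 12385 genes). FPKM is fragments per kilobase of transcript per 1000000 mapped fragments, so levels can be set side by side between genes, and fold changes on the log2(FPKM + 1) scale understate the change of low genes.

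Against the background of all genes, 1 of 10 members passed lower and 0 passed higher, where 0.145% of genes passed lower and 0.0565% passed higher. At an unadjusted limma p under 0.05, 6 members were lower and 2 higher, against 11.9% and 7.12% of all genes. All LV-HOXD9 values were below all LV-Vector values for 6 members (17.5% of all genes) and above them for 1 member (10.9% of all genes). The median log2 fold change of the 10 members was -0.46, and that of all genes was -0.04. As the members were chosen with earlier results of these data known, these counts are a description.

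**Figure D1:**
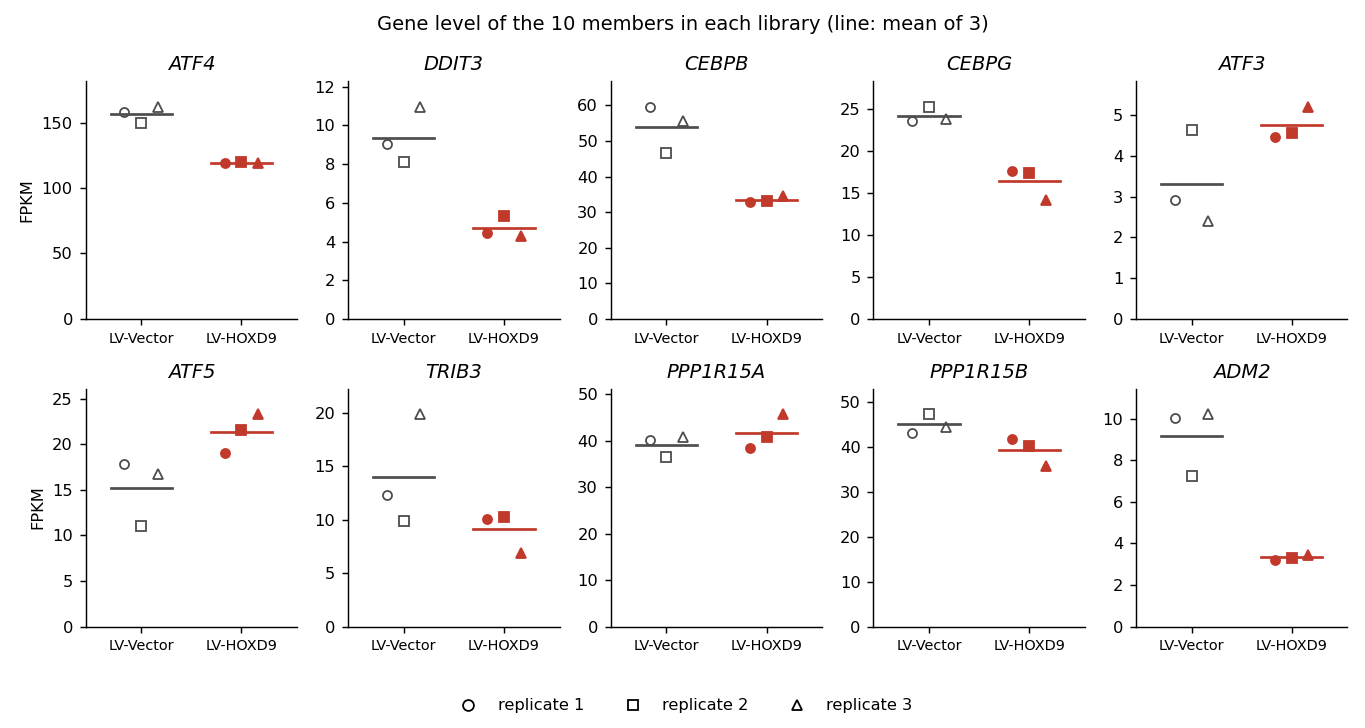
Level in FPKM (vertical axis from 0, its own scale in each panel) of the 10 members in the 3 LV-Vector libraries (open) and the 3 LV-HOXD9 libraries (filled), with the marker shape giving the replicate and a line at the mean. The groups do not touch for ATF4, DDIT3, CEBPB, CEBPG, PPP1R15B, ADM2 and ATF5, and they overlap for ATF3, TRIB3 and PPP1R15A.

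HOXD9 itself was listed at 26.6, 26.4 and 31.3 FPKM in LV-HOXD9 replicates 1, 2 and 3 and at 0, 0.0413 and 0.0309 FPKM in LV-Vector. Of 12 gastric epithelial markers, 11 were measured, with a summed level of 1073 to 1113 FPKM in LV-HOXD9 and 930 to 1060 FPKM in LV-Vector. Measured markers of other cells were 1 of 7 for fibroblasts (COL1A1, 0.924 to 1.05 against 1.00 to 1.22 FPKM) and 0 of 5 for endothelium. Among markers of immune cells, LYZ stood at 1.72, 1.71 and 1.24 FPKM in LV-HOXD9 and at 2.93, 2.95 and 2.71 FPKM in LV-Vector (log2 fold change -0.60, limma adjusted p = 0.084), and CD74 was at 0.615 to 0.701 against 0.712 to 0.935 FPKM. Both were thus lower in every LV-HOXD9 library, as 6 members were, while PTPRC, which defines blood cells, was not among the genes measured. The part of these markers in the results was not tested. The summed FPKM of a library was 242093 to 270501. A pair of libraries stood apart by base composition. Deviations here are from a gene's mean over all 6 libraries, so they also hold any difference between the groups. They followed GC content in LV-HOXD9 replicate 3 (Spearman's rho 0.66 across genes). They ran against GC content in LV-Vector replicate 2 (-0.60), with the other 4 between -0.30 and 0.23. Without this pair the log2 fold changes were -0.42 for ATF4, -0.91 for DDIT3, -0.58 for TRIB3 and 0.60 for ATF3; those of the other members stand with their values. Removing length and GC trends from each library left ATF4, DDIT3, CEBPB, CEBPG and ADM2 past the threshold, and then 152 genes passed lower and 210 higher, in place of 18 and 7.

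The core factors come first. ATF4 (ENSG00000128272, chr22:39915700-39918690, plus strand, GRCh37 here and for each member) stood at 118.8, 119.5 and 118.9 FPKM in LV-HOXD9 and at 157.8, 149.8 and 162.2 FPKM in LV-Vector. The LV-HOXD9 libraries were all lower and lay closer together (119.1 ± 0.375, SD, n = 3) than those of LV-Vector (156.6 ± 6.27, SD, n = 3). The ratio of the means was 0.760, and the log2 fold change was -0.39 (SE 0.0499, limma adjusted p = 0.0502). ATF4 therefore missed the threshold by a narrow margin. It passed it under 6 of 19 other ways of processing, among them TPM scaling (adjusted p = 0.0227), and its log2 fold change stayed between -0.48 and -0.37 in all 19. ATF4 was the most abundant member in both groups, above 98.6% of all genes. Processed pseudogenes of ATF4 are known in the human genome and 0 of them are in the gene table, so reads shared with such copies may be counted under ATF4 or lost. In bulk RNA, fewer cells that express a gene and less of its RNA per cell cannot be told apart, and this holds for each member.

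DDIT3 (ENSG00000175197, chr12:57910371-57914300, minus strand) encodes CHOP, a C/EBP family factor that has its promoter switched on by ATF4 and is known for driving cell death in long stress. It stood at 4.44, 5.30 and 4.31 FPKM in LV-HOXD9 and at 9.06, 8.09 and 10.98 FPKM in LV-Vector. No LV-HOXD9 library reached the lowest LV-Vector library. The mean was 2.00-fold lower, 4.68 ± 0.539 against 9.38 ± 1.47 FPKM (SD, n = 3 each), with a log2 fold change of -0.86 (SE 0.121, limma adjusted p = 0.0581). It passed under TPM scaling, with protein-coding sums made equal and with length and GC trends removed (3 of 19 alternatives). DDIT3 shares 982 bases with MARS, the methionyl-tRNA synthetase gene on the opposite strand, at 21.7 ± 0.608 FPKM in LV-HOXD9 and 24.29 ± 2.197 in LV-Vector. Whether the counting used strand was not given in the sources used here, so reads of that stretch cannot be told apart.

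CEBPB and CEBPG, the C/EBP partners among the members, had fold changes of the same sign as ATF4. Outside the members, the log2 fold changes were 0.17 for CEBPA, 0.23 for CEBPD and -0.17 for CEBPZ. CEBPB (chr20:48807271-48809226, plus strand), a factor of inflammation and differentiation that pairs with ATF4 and CHOP, stood at 33.0, 33.2 and 34.5 FPKM in LV-HOXD9 and at 59.7, 46.6 and 55.7 FPKM in LV-Vector. The groups were apart, with LV-Vector replicate 2 nearest to LV-HOXD9. The log2 fold change was -0.66 (SE 0.0930, limma adjusted p = 0.0581), and the mean was 1.61-fold lower. Without LV-Vector replicate 2 it was -0.77 and passed (limma adjusted p = 0.0242). Without LV-HOXD9 replicate 3 as well it was -0.78 (limma adjusted p = 0.0512).

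CEBPG (chr19:33864236-33873592, plus strand) is a short C/EBP protein that binds DNA as a partner of other bZIP factors, ATF4 among them. It stood at 17.7, 17.4 and 14.2 FPKM in LV-HOXD9 and at 23.6, 25.3 and 23.8 FPKM in LV-Vector. Every LV-HOXD9 library was lower, and replicate 3 was the lowest. The log2 fold change was -0.54 (SE 0.0921, limma adjusted p = 0.0905), and the mean was 1.48-fold lower. Its leading transcript is 43.9% GC, and the pair of libraries with base composition trends gave its extremes, the lowest of LV-HOXD9 and the highest of LV-Vector. Without that pair the log2 fold change was -0.41 (adjusted p = 0.132), and with length and GC trends removed it was -0.42 (limma adjusted p = 0.0202).

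ATF3 and ATF5 had fold changes of the opposite sign, neither past the threshold. ATF3 (chr1:212738676-212794119, plus strand), a stress-induced factor that represses many of its targets, stood at 4.47, 4.56 and 5.21 FPKM in LV-HOXD9 and at 2.915, 4.641 and 2.401 FPKM in LV-Vector. LV-Vector replicate 2 lay inside the LV-HOXD9 range, and the other LV-Vector libraries lay below it. Its log2 fold change was 0.44 (SE 0.182, limma adjusted p = 0.257), with a 95% interval from 0.01 to 0.88. Leaving out each library in turn gave 0.29 to 0.65.

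ATF5 (chr19:50431959-50437192, plus strand) is a close relative of ATF4 whose translation is also raised when eIF2 is phosphorylated, and it is known for the response to unfolded protein in mitochondria. It stood at 19.1, 21.5 and 23.3 FPKM in LV-HOXD9 and at 17.87, 10.99 and 16.68 FPKM in LV-Vector. The groups did not overlap, but both replicates 1 were close. Its log2 fold change was 0.49 (SE 0.175, limma adjusted p = 0.222), and it did not pass under any of the 19 alternatives. Without the pair of libraries with base composition trends it was 0.22, and with length and GC trends removed it was 0.44. ATF5 shares 1062 bases with NUP62, a nuclear pore gene on the opposite strand that stood at 42.7 ± 1.37 FPKM in LV-HOXD9 and 37.3 ± 1.37 in LV-Vector (SD, n = 3 each), and the same limit on strand applies. Its leading transcript is 60.0% GC, and that pair gave its extremes, the highest of LV-HOXD9 and the lowest of LV-Vector, as it did for PPP1R15A, CEBPB and ADM2.

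The feedback genes differed among themselves, and none passed. TRIB3 (chr20:343479-378203, plus strand) stood at 10.1, 10.2 and 6.92 FPKM in LV-HOXD9 and at 12.3, 9.83 and 19.9 FPKM in LV-Vector. LV-Vector replicate 2 fell among the LV-HOXD9 libraries, while replicate 3 was far above them. The log2 fold change was -0.54 (SE 0.253, limma adjusted p = 0.299) with a 95% interval from -1.14 to 0.07, and it was -0.27 without LV-Vector replicate 3.

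PPP1R15A (chr19:49375649-49379314, plus strand) stood at 38.4, 40.8 and 45.7 FPKM in LV-HOXD9 and at 40.1, 36.4 and 40.7 FPKM in LV-Vector. The groups overlapped. The log2 fold change was 0.09 (SE 0.0808, limma adjusted p = 0.554), and its 95% interval from -0.10 to 0.28 does not hold a fall as large as that of ATF4. Its sign is not settled, since it was -0.03 without LV-HOXD9 replicate 3 and LV-Vector replicate 2.

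PPP1R15B (chr1:204372515-204380919, minus strand) stood at 41.7, 40.3 and 35.7 FPKM in LV-HOXD9 and at 43.2, 47.3 and 44.5 FPKM in LV-Vector. The groups were apart by a small gap between both replicates 1, and the same pair of libraries gave the lowest LV-HOXD9 and the highest LV-Vector value (43.4% GC). The log2 fold change was -0.20 (SE 0.0745, limma adjusted p = 0.238), and it shrank to -0.06 with length and GC trends removed (limma adjusted p = 0.334) and to -0.095 without that pair (limma adjusted p = 0.439).

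ADM2 was the member with the clearest change. ADM2 (intermedin, ENSG00000128165, chr22:50919985-50924869, plus strand) is a secreted peptide of the calcitonin family that acts on blood vessels, and it is known as a gene that ATF4 induces. It stood at 3.21, 3.31 and 3.45 FPKM in LV-HOXD9 and at 10.03, 7.26 and 10.23 FPKM in LV-Vector. All LV-HOXD9 libraries were below all LV-Vector libraries. The mean was 2.76-fold lower, 3.33 ± 0.120 against 9.17 ± 1.66 FPKM (SD, n = 3 each), with a log2 fold change of -1.22 (SE 0.126, limma adjusted p = 0.0307), rank 12 of all genes by p.

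The direction and size of the ADM2 fall held in every alternative (-1.44 to -1.14), but the call did not. Without LV-HOXD9 replicates 1, 2 or 3 the limma adjusted p was 0.143, 0.128 and 0.0871, and without LV-Vector replicates 1 or 3 it was 0.0696 and 0.108. Without LV-Vector replicate 2 it was 0.00539, and without that library and LV-HOXD9 replicate 3 it was 0.0215 (log2 fold change -1.38). An ordinary linear model gave an adjusted p of 0.114. An exact permutation test on 3 against 3 libraries cannot go below p = 0.10, which is what ADM2 and the other members with groups apart reached.

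**Figure D2:**
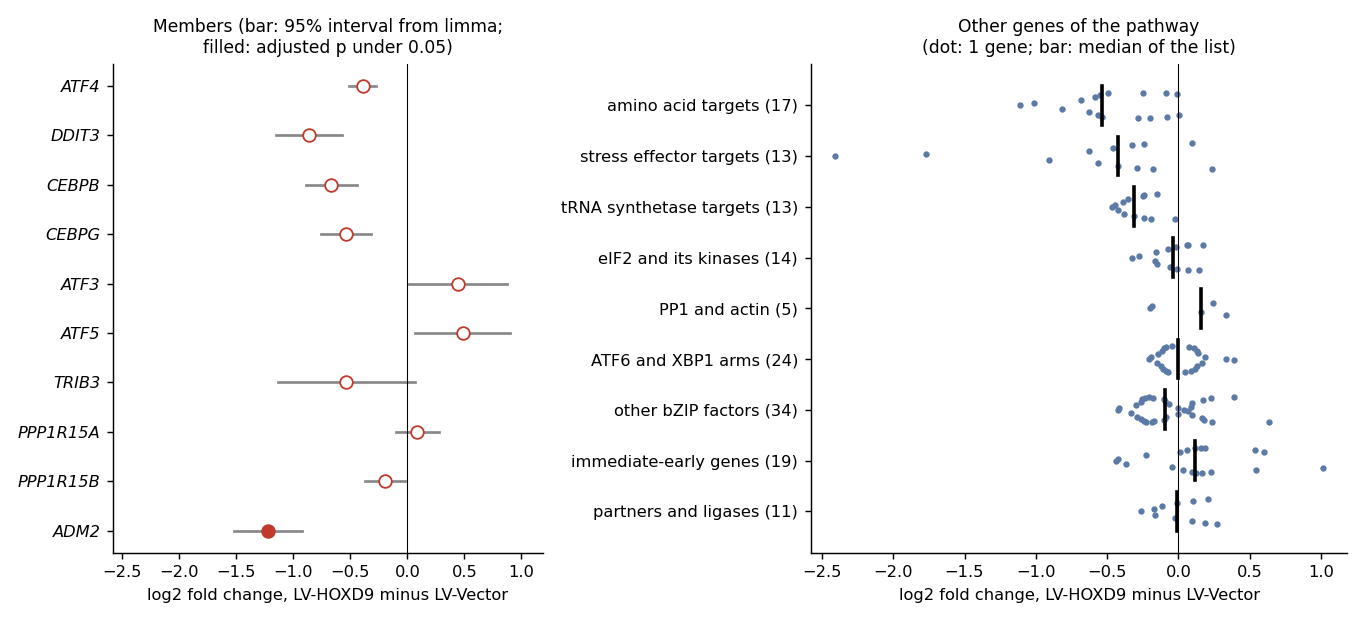
Left, log2 fold change (LV-HOXD9 minus LV-Vector, log2(FPKM + 1) scale) of the 10 members, with the 95% interval from limma and a filled marker for adjusted p under 0.05. Right, the same fold change for genes of 9 other lists of the pathway (1 dot a gene, black bar at the median; the tenth list holds 1 measured gene and is not drawn). ADM2 at -1.22 is the only filled marker, and the 3 target lists have medians of -0.54, -0.43 and -0.31.

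The order of levels differed between the groups. In LV-Vector the mean levels in FPKM ran from ATF4 (156.6) through CEBPB (54.0), PPP1R15B (45.01), PPP1R15A (39.1), CEBPG (24.2), ATF5 (15.2), TRIB3 (14.0), DDIT3 (9.38) and ADM2 (9.17) to ATF3 (3.32). In that group the ranges of neighbours overlapped for CEBPB and PPP1R15B, for ATF5 and TRIB3, for TRIB3 and DDIT3, and for DDIT3 and ADM2. In LV-HOXD9 they ran from ATF4 (119.1) through PPP1R15A (41.7), PPP1R15B (39.2), CEBPB (33.5), ATF5 (21.3), CEBPG (16.4), TRIB3 (9.08), ATF3 (4.75) and DDIT3 (4.68) to ADM2 (3.33). There, overlaps were between PPP1R15A and PPP1R15B and between ATF3 and DDIT3. ATF3 was thus below DDIT3 in every LV-Vector library, and the ranges of the 2 genes overlapped in LV-HOXD9. CEBPG was above ATF5 in every LV-Vector library and below it in every LV-HOXD9 library.

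Levels relative to ATF4 in the same library do not depend on scaling between libraries. For a member that changed in step with ATF4 this log2 ratio is the same in both groups, and 9 ratios were compared with a two-sided exact permutation test. A GC trend within a library does not cancel in a ratio where GC differs. The leading transcript was 53.2% GC for ATF4, 60.0% for ATF5, 63.1% for ADM2 and 66.2% for CEBPB. ADM2, DDIT3 and CEBPB were lower relative to ATF4 in every LV-HOXD9 library, so their log2 differences were more negative than that of ATF4. ATF3, ATF5 and PPP1R15A were higher relative to ATF4 in every LV-HOXD9 library. CEBPG, TRIB3 and PPP1R15B overlapped. The exact p was 0.1 for the 6 ratios that were apart, the smallest that this design allows, and 0.15 after adjustment over the 9 ratios.

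For ADM2 the log2 ratio to ATF4 was -5.21, -5.17 and -5.11 in LV-HOXD9 and -3.98, -4.37 and -3.99 in LV-Vector, a difference of -1.05. For DDIT3 it was -4.74, -4.50 and -4.79 against -4.12, -4.21 and -3.88, a difference of -0.60. CEBPB differed by -0.29. On the other side, ATF5 stood at -2.64, -2.47 and -2.35 in LV-HOXD9 and at -3.14, -3.77 and -3.28 in LV-Vector, a difference of 0.91, or 1.88-fold. The pair of libraries with base composition trends gave the extremes of this ATF5 ratio. ATF3 differed by 0.96 and PPP1R15A by 0.48. TRIB3 (-0.19), PPP1R15B (0.19) and CEBPG (-0.17) differed from ATF4 by less, and the TRIB3 difference turned to 0.07 without LV-Vector replicate 3.

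**Figure D3:**
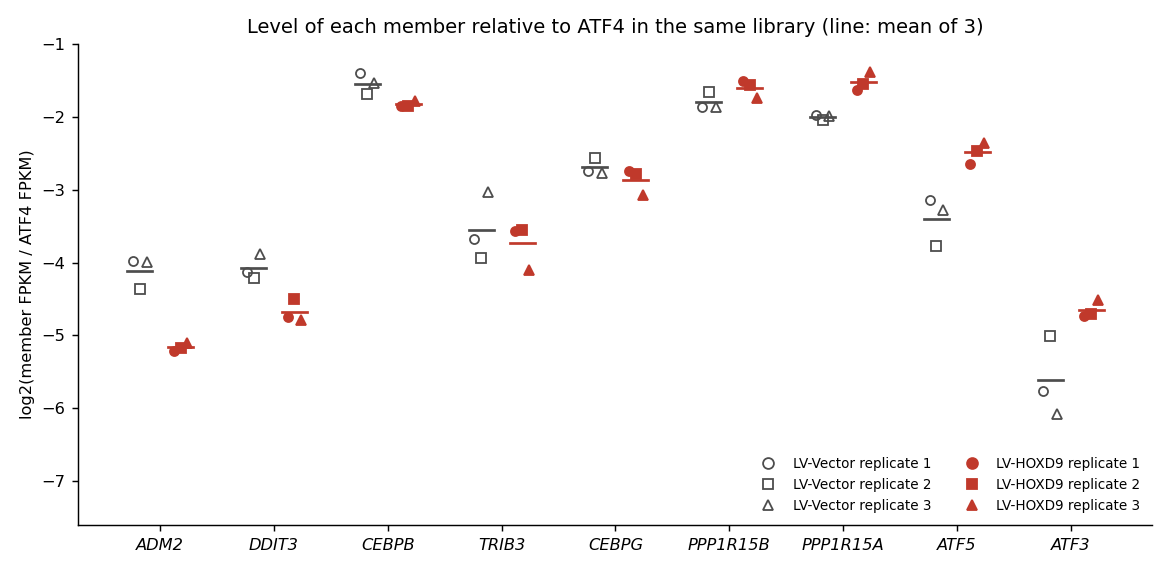
Log2 of the FPKM of each member over the FPKM of ATF4 in the same library (vertical axis), for LV-Vector (open) and LV-HOXD9 (filled), with the marker shape giving the replicate and a line at the mean of 3. Members are ordered by their difference, from ADM2 (-1.05) to ATF3 (0.96).

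The transcripts show which isoforms carry the gene values. The authors list transcript levels separately, and a gene value is not the sum of its transcripts. Of the 20 member transcripts, 0 passed the adjusted threshold of limma, where 0.0992% of all transcripts passed, and the lowest adjusted p was 0.166 for ADM2-202. At an unadjusted limma p under 0.05, 9 were lower and 0 higher, where 3.77% of all transcripts were lower and 3.22% higher. All LV-HOXD9 values were below LV-Vector for 11 transcripts (8.70% of all transcripts) and above for 1 (6.71%), and 8 overlapped.

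ATF4 was lower through each of its 3 transcripts. ATF4-202, the leading one, stood at 87.8, 73.5 and 72.3 FPKM in LV-HOXD9 and at 123.2, 105.9 and 93.1 FPKM in LV-Vector (log2 fold change -0.46). ATF4-201 and ATF4-203 had log2 fold changes of -0.28 and -0.45. All 3 were apart between the groups. The share of ATF4-202 among the ATF4 transcripts was 44.8% ± 4.42 in LV-HOXD9 and 46.8% ± 6.25 in LV-Vector (SD, n = 3 each), and a shift between isoforms was not detectable.

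DDIT3-201, the leading CHOP transcript, stood at 3.07, 2.56 and 1.64 FPKM in LV-HOXD9 and at 6.16, 4.88 and 7.45 FPKM in LV-Vector. The groups were apart. Its log2 fold change was -1.07, that of DDIT3-202 was -0.83, and that of DDIT3-205, which overlapped between the groups, was -0.22. DDIT3-206 (log2 fold change -0.46), a model still to be experimentally checked, has 977 of its 1151 bases inside the MARS overlap. DDIT3-201 made up 40.9% ± 12.1 of the DDIT3 transcripts in LV-HOXD9 and 50.6% ± 2.92 in LV-Vector (SD, n = 3 each, exact permutation p = 0.4). Of the 6 members with more than 1 transcript, no share passed (adjusted p = 0.9 for each, exact permutation test).

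ATF5 rested on ATF5-201, which made up 90.9% ± 0.145 of its transcript level in LV-HOXD9 and 90.6% ± 1.51 in LV-Vector (SD, n = 3 each). ATF5-201 stood at 25.6, 28.9 and 31.1 FPKM in LV-HOXD9 and at 24.0, 14.6 and 22.3 FPKM in LV-Vector, and it was the only member transcript above LV-Vector in every LV-HOXD9 library (log2 fold change 0.50, limma adjusted p = 0.688). The other 2 ATF5 transcripts were listed at no more than 2.01 FPKM and overlapped.

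ATF3 had 1 listed transcript, ATF3-202, at 7.41, 7.61 and 9.04 FPKM in LV-HOXD9 and at 1.34, 7.68 and 2.92 FPKM in LV-Vector. LV-Vector replicate 2 was again as high as LV-HOXD9, while the other LV-Vector libraries were far lower. Its log2 fold change was 1.06 (SE 0.474, limma adjusted p = 0.688), against 0.44 for the gene. It was 0.62 without LV-Vector replicate 1 and 1.57 without LV-Vector replicate 2.

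**Figure D4:**
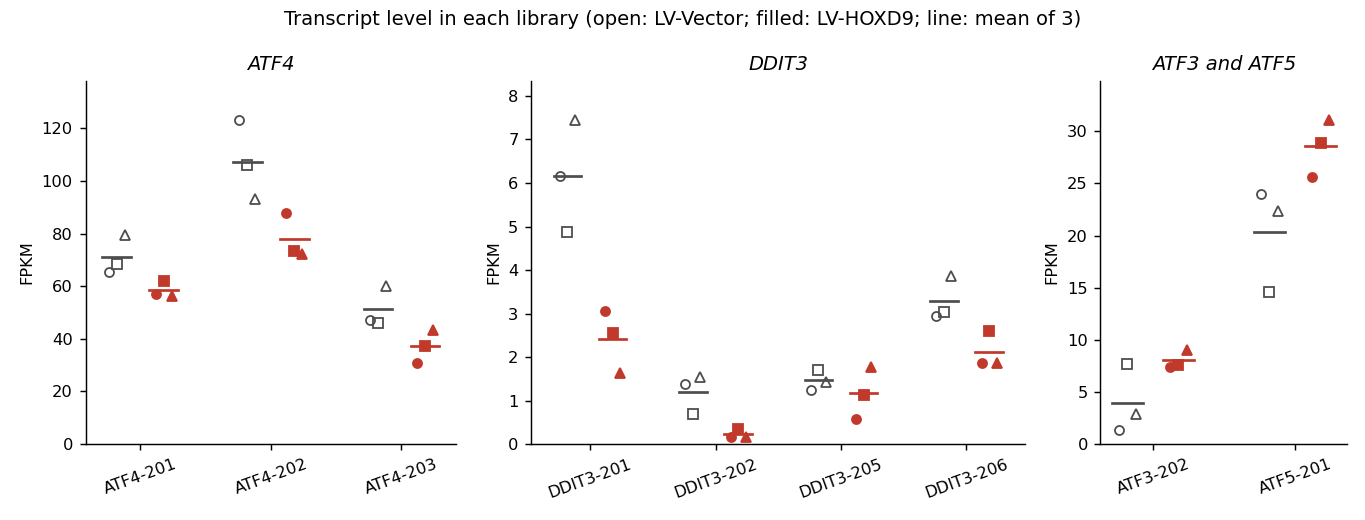
Transcript levels in FPKM (vertical axes from 0) for the 3 ATF4 transcripts, the 4 DDIT3 transcripts, ATF3-202 and ATF5-201, in LV-Vector (open) and LV-HOXD9 (filled), with the marker shape giving the replicate as in the plot of gene levels and a line at the mean of 3. All ATF4 transcripts and DDIT3-201, DDIT3-202 and DDIT3-206 are lower in every LV-HOXD9 library, and ATF3-202 overlaps through LV-Vector replicate 2.

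Most of the target genes were lower as well. Of 43 measured targets of ATF4 and CHOP in 3 lists (51 genes listed, no member among them), 6 passed the adjusted limma threshold lower and 0 higher. Over all genes, 0.145% passed lower and 0.0565% higher. At an unadjusted limma p under 0.05, 33 were lower and 1 higher, against 11.9% and 7.12% of all genes. In 31 the LV-HOXD9 values were all below LV-Vector, with 2 all above, against 17.5% and 10.9% of all genes. The lists were chosen with earlier results of these data known, so these counts are a description. The median log2 fold change of the targets was -0.38, beside -0.39 for ATF4 and -0.04 for all genes. The mean log2(FPKM + 1) over the 43 targets was 4.02, 3.99 and 3.90 in LV-HOXD9 and 4.44, 4.38 and 4.45 in LV-Vector. ATF4 on the same scale was 6.905, 6.913 and 6.906 in LV-HOXD9 and 7.31, 7.24 and 7.35 in LV-Vector. Neither overlapped between the groups, and in LV-Vector both ran from replicate 3 as the highest to replicate 2 as the lowest. LV-Vector replicate 2 is also the library whose deviations ran against GC content. In LV-HOXD9 the orders differed: the targets were highest in replicate 1 and lowest in replicate 3, while ATF4 was nearly level and highest in replicate 2. Fewer targets passed when some libraries were left out: 1 without the first LV-HOXD9 library, 2 without the second, 3 without the first LV-Vector library and 1 without the third.

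Among 17 measured genes of amino acid synthesis and transport (median -0.54), 3 passed lower, where 0.145% of all genes did. SLC7A11, the cystine importer, stood at 1.02, 1.04 and 0.697 FPKM in LV-HOXD9 and at 2.90, 3.21 and 3.30 in LV-Vector (log2 fold change -1.11, limma adjusted p = 0.0140). CTH, which makes cysteine from cystathionine, had a log2 fold change of -1.01 (limma adjusted p = 0.0400), and SLC6A9, a glycine transporter, of -0.82 (limma adjusted p = 0.0400).

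Among 13 measured stress effectors (median -0.43), 3 passed lower, where 0.145% of all genes did. DDIT4 (REDD1), an inhibitor of mTORC1, stood at 7.63, 7.97 and 7.46 FPKM in LV-HOXD9 and at 47.2, 39.7 and 48.9 in LV-Vector (log2 fold change -2.41, limma adjusted p = 0.000113). CHAC1, which breaks down glutathione, had a log2 fold change of -1.77 (limma adjusted p = 0.0136), and SESN2, a leucine sensor, of -0.56 (limma adjusted p = 0.0287). The log2 fold changes of DDIT4 and CHAC1 were thus larger in size than that of any member. Of the 13 cytosolic tRNA synthetase genes (with the tRNA exporter XPOT among them, median -0.31), 0 passed. At an unadjusted limma p under 0.05, 10 were lower and 0 higher, against 11.9% and 7.12% of all genes. CARS, the cysteinyl-tRNA synthetase, was nearest at -0.46 (limma adjusted p = 0.0502).

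In lists of genes around the members that were not listed as ATF4 targets, the medians lay nearer to 0. Their counts are to be read against all genes, where 11.9% were lower and 7.12% higher at an unadjusted limma p under 0.05. A list of 14 genes around eIF2, eIF2B and the eIF2 kinases also held EIF2A and IMPACT, which are neither subunits nor kinases of these. In it 0 passed, and 1 was lower and 1 higher at an unadjusted limma p under 0.05 (median -0.04). EIF2S2, the eIF2 beta subunit, was at -0.32. Of 24 genes of the ATF6 and XBP1 arms, which deal with unfolded protein in the endoplasmic reticulum, 0 passed, 2 were lower and 5 higher unadjusted (median 0.00), with SDF2L1 at 0.33. Of 5 genes for PP1 and actin, which act with PPP1R15A and PPP1R15B, 0 passed and 2 were higher unadjusted (median 0.16), with ACTB at 0.25. Of 11 genes that bind or degrade ATF4, CHOP or their partners, 0 passed and 2 were higher unadjusted (median -0.01), with TRIB1 at 0.27.

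Of 34 other bZIP factors (median -0.10), 0 passed, with JDP2, a repressor that also stands among the stress effectors, at -0.43. Unadjusted, 6 were lower and 5 higher, against 11.9% and 7.12% of all genes. Of 19 immediate-early genes (median 0.12), 1 passed higher, CTGF (0.60, limma adjusted p = 0.0400), where 0.0565% of all genes did. Unadjusted, 5 of these were higher and 1 lower. Of 10 relatives and receptor subunits of ADM2, only ADM5 was measured, at 2.34 ± 0.436 FPKM in LV-HOXD9 and 1.74 ± 0.161 in LV-Vector (SD, n = 3 each; log2 fold change 0.28, limma adjusted p = 0.247), opposite in sign to ADM2. Some genes stand in more than one of these lists.

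The genes whose pattern over the 6 libraries was most like that of a factor were ranked by Pearson's r on log2(FPKM + 1), among 3033 genes that averaged 1 FPKM or more and ranged over 0.5 or more. The libraries fall into the study's groups, so any gene that differs between the groups ranks high, and r is a description. For ATF4 the nearest were SH2B3 (0.998), KRT23 (0.997) and CARS (0.996), with ADM2 at rank 4, DDIT3 at rank 18 and CEBPB at rank 21, while ATF3 stood near the other end at -0.81. For DDIT3 they were ANXA9 (0.989), RGMB (0.988) and PSPH (0.981). For TRIB3 they were LHPP (0.989), AC005993.1 (0.972) and ABHD5 (0.968), and ATF4 was at 0.73, with LV-Vector replicate 3 far above the rest for TRIB3.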

How the data were processed

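The authors made total RNA libraries with a stranded kit, sequenced them, and deposited FPKM values for genes and transcripts (fragments per kilobase per 1000000, by Ballgown). Per the submitters' processing notes, the tools were cutadapt, FastQC, HISAT2 and StringTie on GRCh37, with no versions. Read depth is unknown from FPKM, so no counting interval was given. In the gene table the higher of the group means was at least 0.500 FPKM for every gene. Gene symbols, IDs and coordinates were those of the files, transcript length and GC content came from GENCODE 29, and promoter sequences from RefSeq (GRCh38.p14), with no conversion between builds.

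Each of the 6 libraries was assigned by its labels. LV-HOXD9 was compared with LV-Vector on log2(FPKM + 1) with limma 3.58.1 in R 4.3.3 (moderated variance with a trend), for features with a mean of at least 0.1 FPKM, with Benjamini-Hochberg adjustment over all 12385 genes or 40304 transcripts. Ratios and isoform shares were compared with two-sided exact permutation tests. The code was tested on simulated data. The tables and figures were made in Python 3.11.15 with pandas 2.3.3 and matplotlib 3.10.9.

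Named genes were all 10 members, their transcripts that passed or led, up to 3 genes of each pathway list with the smallest p among those that passed (otherwise 1), HOXD9, and the 3 genes most like ATF4, DDIT3 and TRIB3. Other transcripts of members, and CEBPA, CEBPD and CEBPZ, were named after their values were seen. One cell type marker is not reported here. The members and lists were chosen with earlier results of these data known. Alternatives covered the pseudocount, the minimum level, scaling, length and GC trends, the variance model, a replicate block, the call rule and leaving out libraries.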

Additional observations from a re-analysis of the deposited data

How the results depend on the processing

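The sign of each member's gene fold change held in every alternative except for PPP1R15A, which was -0.027 without LV-HOXD9 replicate 3 and LV-Vector replicate 2. Its transcripts PPP1R15A-201 and PPP1R15A-202 were -0.024 and -0.063 there. With 1 library left out at a time, PPP1R15A ranged from 0.022 to 0.144, PPP1R15A-201 from 0.027 to 0.134 and PPP1R15A-202 from -0.055 (without LV-HOXD9 replicate 3) to 0.237. In all, 166 of 190 such gene values kept sign and side of the threshold, 15 newly passed and 8 no longer passed, all 8 for ADM2. Isoform share differences changed sign in 5 of 36 cases, and that of DDIT3-201 kept its sign at -16.294 to -4.375 percentage points over left-out libraries. For the members that changed sign, the range over left-out libraries, in percentage points, was -5.303 to 0.844 for ATF4, -0.427 to 1.077 for ATF5, -0.848 to 0.484 for PPP1R15A and -1.014 to 2.582 for TRIB3, with -0.678 also for TRIB3 without LV-HOXD9 replicate 2. The TRIB3 log2 ratio to ATF4 ranged from -0.381 to 0.07.

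In place of 1, the members passing lower numbered 2 with a mean of at least 1 FPKM or robust limma, and 3 with quantile normalization. There were 4 on the TPM scale or with protein-coding sums made equal, and 5 with length and GC trends removed. By unadjusted p of an ordinary linear model and a fold of 1.2 there were 5. By adjusted p of that model there were 0, and 0 to 2 when each library was left out in turn. None passed higher. ATF3 and ATF5, higher at an unadjusted limma p of 0.0459 and 0.028, did not pass the unadjusted rule of the ordinary linear model. In place of 6, the targets passing lower numbered 2 by adjusted p of an ordinary linear model and 26 by the same unadjusted rule. They numbered 10 with protein-coding sums made equal and 17 with length and GC trends removed. Without LV-HOXD9 replicate 3 and LV-Vector replicate 2 the number was 1, and 1 to 5 when each library was left out. The cause was not tested. Over all genes, 18 lower and 7 higher became 30 and 4 on the TPM scale, where the median of all genes was -0.11, so ATF4 at -0.46 there is to be read against that shift. They became 33 and 10 with protein-coding sums made equal, 10 and 2 with an ordinary linear model, and 152 and 210 with length and GC trends removed.

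The groups share replicate numbers, and whether the numbers pair the libraries is not known. Deviations from the group means correlated at -0.17, 0.17 and -0.01 for the same numbers. These deviations sum to 0 within a group and may carry the GC trends of LV-HOXD9 replicate 3 and LV-Vector replicate 2, so they cannot decide it. With the replicate block, alone or together with length and GC removal, 0 members and 1 target passed lower, and over all genes 2 passed lower and 1 higher. The adjusted p of ADM2 was 0.136 and 0.121.

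With 3 libraries a group and no depth, small falls such as that of PPP1R15B could not be told from the spread, and the exact test could not reach 0.05.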
